A study of Mus musculus and Homo sapiens with 34 samples.

Results

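The genes described here are 7 core genes of the cascade from RAS to ERK: the RAS genes Hras and Nras, the RAF kinase genes Araf and Braf, the MEK genes Map2k1 and Map2k2, and the ERK1 gene Mapk3. They were chosen by symbol, and each has 1 row in all 7 deposited count tables, which list from 16553 to 26245 genes. All 7 members passed the filter on low counts in every table.

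RAS proteins are small GTPases that switch growth factor signals on when they bind GTP. Active RAS recruits RAF kinases to the membrane, RAF phosphorylates the MEK kinases, and MEK phosphorylates ERK, which enters the nucleus and turns on early response genes and its own inhibitors. In lung adenocarcinoma this cascade is a common driver of growth, and it is controlled mainly by protein activity, which transcript levels do not measure.

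RNA was sequenced from 34 libraries in 17 groups of 2, of which 22 were mouse (cultures of lung tumours) and 12 were human (lung adenocarcinoma lines). The 3154 organoids carry p53 alleles flanked by FRT sites, a CreERT2 recombinase at Rosa that 4-hydroxytamoxifen (4OHT) activates, and floxed Hnf4a. They were sampled 2 weeks after ethanol or 4OHT (2 mM per the labels). In a second experiment, called the 48-hour experiment below, 3154 organoids received ethanol or 4OHT, each with vehicle or 3 nM MRTX1133, a small-molecule RAS inhibitor. No group received 4OHT with Hnf4a intact. Effects of 4OHT or of the activated recombinase therefore cannot be told apart from those of losing Hnf4a. Floxed Foxa1 and Foxa2 are carried by the 1027B organoids and by the mouse line 3311, without a named treatment that deletes them. The 1027B organoids received vehicle, 10 nM trametinib, which inhibits the MEK kinases, or 20 nM MRTX1133 for 48 hours. In 3311 the dose of trametinib was 50 nM, and in the human lines H358 and H1651 it was 20 nM, each set against vehicle at 48 hours. H1651 carrying a lentiviral HNF4α construct was also grown for 7 days with doxycycline (1 µg/mL) or without. Each named culture is a single line, and the labels do not say whether replicates came from separate cultures, so p values measure only the spread between these libraries, which may be technical.

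Library totals ran from 19692517 to 45284286 counts. Hnf4a, the gene that 4OHT removes in 3154, stood at 315 and 427 CPM 2 weeks after ethanol and at 53.5 and 68.0 CPM after 4OHT. In the 48-hour experiment it stood between 180 and 230 CPM in the 4 ethanol libraries and between 25.3 and 50.4 CPM in the 4 libraries given 4OHT. HNF4A stood at 47.1 and 35.9 CPM in H1651 without doxycycline and at 94.4 and 96.8 CPM with it. The 5 epithelial markers together (Epcam, Cdh1, Krt8, Krt18, Nkx2-1) made up between 2679 and 8849 CPM in every library. EPCAM itself was near 0 in H1651, between 0.993 and 3.81 CPM. Of the fibroblast markers in the same line, the collagen gene COL3A1 stood between 241 and 449 CPM, COL1A1 between 51.8 and 84.5 CPM and DCN between 3.88 and 13.7 CPM. COL1A2 and PDGFRA were at most 0.989 and 0.382 CPM. Among the immune markers, PTPRC, which marks white blood cells, was at most 2.52 CPM in any library, and CD68 at most 7.76 CPM. CSF1R reached 38.1 CPM in 3154 of the 2-week experiment and 27.7 CPM in 3311, and at most 2.94 CPM elsewhere.

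The promoters of 6 of the 7 members were found in RefSeq (assembly GRCm38.p6), and 3 are printed: that of Map2k1, the member with the most calls, that of its paralog Map2k2, and that of Hras, the 1 member called higher. Each runs from 250 bases before to 50 bases after the start of the gene and reads 5′ to 3′ on the gene's strand. Capitals mark the SP1 box GGGCGG and the CCAAT box, searched on both strands.
Map2k1, chr9:64253556-64253855, minus strand: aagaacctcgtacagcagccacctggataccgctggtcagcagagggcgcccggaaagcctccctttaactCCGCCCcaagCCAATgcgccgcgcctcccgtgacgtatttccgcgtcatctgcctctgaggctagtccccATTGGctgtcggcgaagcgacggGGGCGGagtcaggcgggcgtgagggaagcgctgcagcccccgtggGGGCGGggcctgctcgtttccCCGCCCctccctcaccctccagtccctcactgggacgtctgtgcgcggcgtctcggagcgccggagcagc
Map2k2, chr10:81105665-81105964, plus strand: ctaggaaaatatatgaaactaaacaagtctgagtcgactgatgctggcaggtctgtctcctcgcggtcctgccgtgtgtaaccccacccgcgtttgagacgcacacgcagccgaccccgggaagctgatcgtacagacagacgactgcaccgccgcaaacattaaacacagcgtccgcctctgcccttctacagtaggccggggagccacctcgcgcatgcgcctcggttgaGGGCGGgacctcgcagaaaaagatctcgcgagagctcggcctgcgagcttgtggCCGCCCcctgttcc
Hras, chr7:141193955-141194254, minus strand: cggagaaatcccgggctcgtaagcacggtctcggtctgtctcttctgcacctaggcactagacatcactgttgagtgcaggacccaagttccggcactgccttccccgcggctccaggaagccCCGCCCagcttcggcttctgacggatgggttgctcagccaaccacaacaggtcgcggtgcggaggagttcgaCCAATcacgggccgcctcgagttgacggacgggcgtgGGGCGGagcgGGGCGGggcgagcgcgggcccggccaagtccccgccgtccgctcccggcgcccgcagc
The Map2k1 promoter held 4 SP1 boxes and 2 CCAAT boxes, that of Map2k2 held 2 and 0, and that of Hras held 3 and 1. Of 32851 mouse promoters of this length, 35.7% held the SP1 box and 37.4% the CCAAT box. Other motifs were searched and are not marked. The ETS core CCGGAA, held by 14.9% of promoters, had 1 match in Map2k1, 0 in Map2k2 and 1 in Hras. The CRE, AP-1 and E-box motifs had 0 matches in each of these promoters. A match of letters is a description and not a binding site.

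Levels of different genes were compared only after division by exon length, which ranged from 2257 bases for Mapk3 to 13862 bases for Braf in the GENCODE M21 annotation of GRCm38. The human tables had no such lengths here. Mapk3 was the most abundant of the 7 per kilobase of exon in all 4 mouse control groups, followed by Map2k1. Mapk3 stood between 76.1 and 77.9 CPM per kb in 3311 vehicle and between 156 and 214 CPM per kb in 3154 2 weeks after ethanol. Map2k1 stood between 57.0 and 57.7 CPM per kb in 3311 vehicle and between 75.3 and 85.1 CPM per kb in the 48-hour ethanol vehicle group of 3154. Its paralog Map2k2 reached 19.1 CPM per kb on average in 3311 vehicle and 25.0 CPM per kb in 3154 2 weeks after ethanol, below Map2k1 in every control library. Nras lay near Map2k2, and the 2 genes overlapped in 3154 2 weeks after ethanol, where Nras ran from 25.1 to 26.1 and Map2k2 from 23.1 to 27.0 CPM per kb. Hras and Araf came next, with Hras above Araf in 1027B and in both 3154 experiments and Araf above Hras in 3311. Braf was lowest, between 0.823 and 3.08 CPM per kb. Exons of Araf and Braf overlap a gene on the opposite strand over 0.138% and 1.05% of their length, and those of the other 5 members overlap none.

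**Figure D1:**
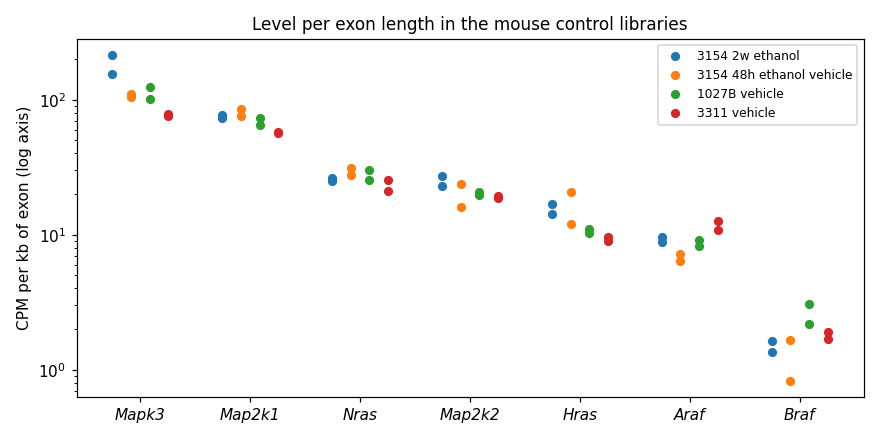
Level of each of the 7 mouse genes in CPM per kilobase of exon (vertical log axis) in the 4 control groups, 1 point per library. Mapk3 and Map2k1 sit highest and Braf lowest in every control group.

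Against the matching control, the members were tested in 11 comparisons with edgeR's quasi-likelihood test, and a gene was called at a Benjamini-Hochberg adjusted p under 0.05 over all genes of its table. Of the 77 pairs of gene and comparison, 10 were called, 9 lower and 1 higher. Map2k1 was called lower in 5 comparisons, Mapk3 lower in 3, and Hras higher in 1 and lower in 1. Nras, Araf, Braf and Map2k2 were called in 0 of 11. Comparisons within the 1027B table share their vehicle libraries, and those within the 48-hour table share libraries in pairs, so they are not independent of each other.

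**Figure D2:**
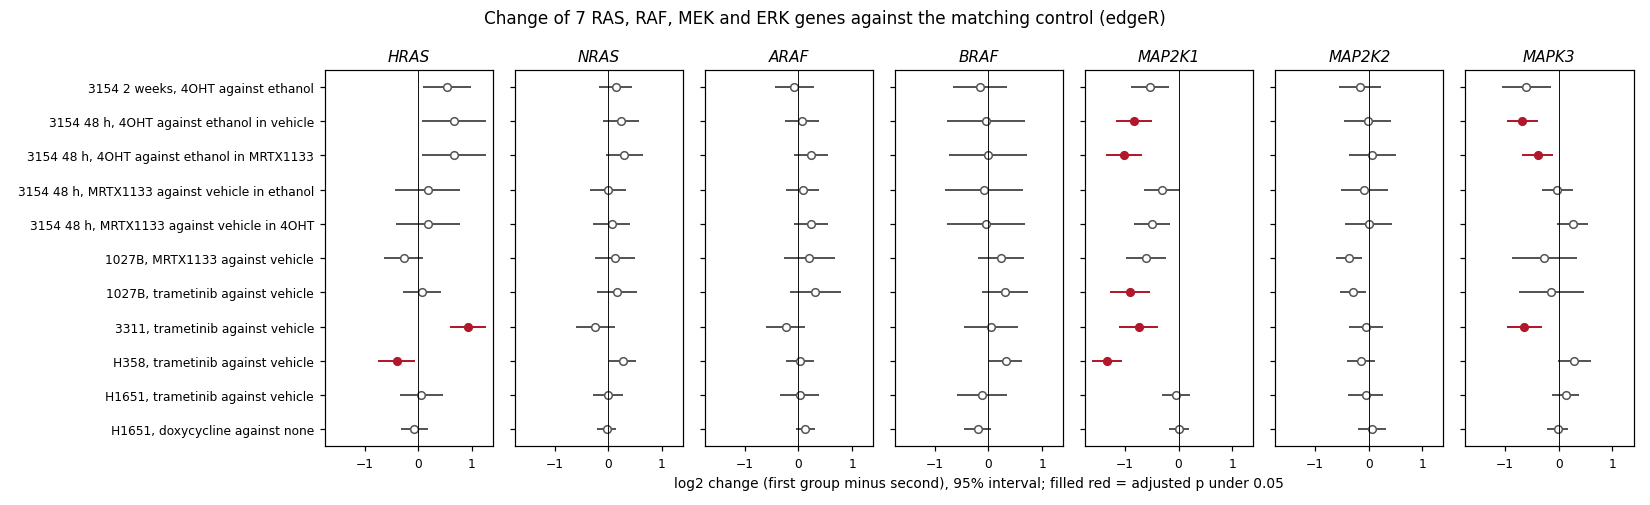
Log2 change of each of the 7 genes (panels, human symbols) in the 11 comparisons with a matching control (rows), first group minus second, with the 95% interval. Filled red points are the 10 called changes, of which 9 lie below 0.

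The members called must be read against how many genes moved in each experiment. In 3311, 3 of 7 members were called with trametinib, where 39% of all tested genes were called. In H358, 2 of 7 were called, where 46.8% of all genes were. In 1027B, 1 of 7 was called with trametinib, against 26.7% of all genes, and 0 of 7 with MRTX1133, against 6.27%. In 3154, 4OHT called 0 of 7 at 2 weeks, against 9.81%. In the 48-hour experiment, 4OHT called 2 of 7 in vehicle, against 31%, and 2 of 7 with MRTX1133 present, against 27.7%. There MRTX1133 called 0 of 7 in ethanol, against 0.349%, and 0 of 7 in 4OHT, against 4.64%. In H1651, doxycycline called 0 of 7, against 1.42%. Trametinib in H1651 called 0 of 7 and 0% of genes (0 of 18277) in edgeR, where 597 genes had an unadjusted p under 0.05 and DESeq2 called 47. These counts come from the fits without a block. With the replicate number as a block, trametinib in H1651 called 0 of 7 members and 1881 genes (10.3%). In 1027B, where replicate numbers were taken as pairing the libraries, the block called 3 of 7 members with trametinib, against 44.9% of all genes, and 3 of 7 with MRTX1133, against 24.1%. DESeq2 called 2 of 7 with MRTX1133 there, beside 1593 of 13946 genes, and 2 of 7 at 2 weeks after 4OHT in 3154, beside 2336 of 14955. The median change of the 7 members lay between -0.27 in 1027B with MRTX1133 and 0.07 in 1027B with trametinib on the log2 scale, beside medians of all genes between -0.01 and 0.02.

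Hras encodes a RAS GTPase that is anchored at the membrane by farnesyl and palmitoyl lipids. In 3311 it stood at 35.9 and 33.7 CPM in vehicle and at 66.8 and 65.9 CPM with trametinib. The libraries of each group lay close together and the groups did not overlap, as for 74.5% of all tested genes there. The rise was 1.91-fold (log2 change 0.93, SE 0.133, adjusted p = 0.00273 in edgeR), and it was called in every alternative setting run and without each library. H358 went the other way. HRAS stood there at 16.4 and 17.9 CPM in vehicle and at 13.5 and 12.4 CPM with trametinib, a level that fell by 0.40 on the log2 scale (SE 0.141, adjusted p = 0.0470 in edgeR). This call was lost in DESeq2 (adjusted p = 0.0744) and with upper-quartile scaling (adjusted p = 0.0764), and with no count filter (adjusted p = 0.0516). It was also lost when any 1 of the 4 libraries was left out, with adjusted p values of 0.0866 and 0.230 without vehicle replicates 1 and 2 and 0.0617 and 0.131 without trametinib replicates 1 and 2.

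In 3154 organoids Hras was higher after 4OHT in every library of each comparison but was not called in any by edgeR without a block. The share of all tested genes whose groups did not overlap was 61.8% at 2 weeks, 66.8% in vehicle and 67.7% with MRTX1133. It stood at 62.6 and 53.4 CPM 2 weeks after ethanol and at 94.1 and 74.1 CPM after 4OHT, a log2 change of 0.53 (SE 0.171, adjusted p = 0.110 in edgeR). In the 48-hour experiment it stood at 44.9 and 77.3 CPM in ethanol vehicle and at 92.9 and 101 CPM in 4OHT vehicle, a log2 change of 0.67 (SE 0.253, adjusted p = 0.0807 in edgeR). The ethanol vehicle libraries differed widely here, and leaving out each library in turn gave changes from 0.32 to 1.10. With MRTX1133 present Hras stood at 58.6 and 79.4 CPM in ethanol and at 115 and 105 CPM in 4OHT, a log2 change of 0.67 (adjusted p = 0.0849 in edgeR). DESeq2 called both of these 48-hour changes, with adjusted p = 0.0484 in vehicle and 0.0463 with MRTX1133. In 1027B, Hras stood at 41.3 and 38.5 CPM in vehicle, 37.4 and 46.5 CPM with trametinib and 31.2 and 35.1 CPM with MRTX1133. Trametinib libraries overlapped vehicle there, while both MRTX1133 libraries were below it (log2 change -0.27, adjusted p = 0.324 in edgeR). With MRTX1133 in 1027B, 52.5% of all tested genes had groups that did not overlap.

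Nras, which encodes a RAS GTPase with the same switch function, differed by at most 0.30 on the log2 scale from its control in the 11 comparisons. Its largest difference was 0.30 after 4OHT with MRTX1133 in 3154, from 142 and 172 CPM to 201 and 186 CPM (SE 0.139, adjusted p = 0.146 in edgeR). H358 gave the smallest adjusted p for this gene. NRAS stood there at 115 and 125 CPM in vehicle and at 144 and 145 CPM with trametinib, a log2 change of 0.27 (SE 0.101, adjusted p = 0.0557 in edgeR). Upper-quartile scaling called this difference (log2 change 0.32, adjusted p = 0.0268). In 3311 both trametinib libraries were below both vehicle libraries, at 105 and 104 against 135 and 112 CPM (log2 change -0.24, adjusted p = 0.219 in edgeR). Groups did not overlap for 74.5% of all tested genes there.

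Araf and Braf encode RAF kinases, of which Braf has the higher basal kinase activity. Araf stood between 41.8 and 82.0 CPM over all 22 mouse libraries, and ARAF between 60.5 and 137 CPM over the 12 human ones. Its largest change was in 1027B with trametinib, where it stood at 59.4 and 54.3 CPM in vehicle and at 80.6 and 61.0 CPM with the inhibitor (log2 change 0.32, SE 0.194, adjusted p = 0.269 in edgeR). Leaving out each library in turn gave changes from 0.10 to 0.50. In that table the libraries were taken as paired by replicate number. With the number as a block the change was 0.30 (adjusted p = 0.0362), in a fit that called 44.9% of all genes. Araf in 3311 went the other way, from 82.0 and 71.4 CPM to 69.0 and 61.0 CPM (log2 change -0.24, adjusted p = 0.225 in edgeR). BRAF in H358 gave the largest RAF difference, from 32.6 and 27.7 CPM to 38.2 and 37.1 CPM (log2 change 0.32, SE 0.128, adjusted p = 0.0709 in edgeR). The groups did not overlap there, as for 75.9% of all tested genes, and upper-quartile scaling called it (log2 change 0.37, adjusted p = 0.0429). Braf was the least precisely measured member in the 48-hour experiment, with ethanol vehicle libraries at 23.1 and 11.4 CPM and standard errors of 0.307 for 4OHT and for MRTX1133.

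Map2k1 encodes MEK1 and Map2k2 encodes MEK2, the paralogous kinases that trametinib inhibits. Map2k1 was lower in every treated library than in every control library in 9 of the 11 comparisons, the exceptions being both comparisons in H1651. Groups that did not overlap were common among all tested genes: 67.1% with trametinib and 52.5% with MRTX1133 in 1027B, 74.5% in 3311, 75.9% in H358, and in 3154 61.8% at 2 weeks, 66.8% after 4OHT in vehicle, 67.7% after 4OHT with MRTX1133, 33% with MRTX1133 in ethanol and 66.6% with MRTX1133 in 4OHT. In H1651 the share was 28.5% with trametinib and 43.4% with doxycycline. In H358, MAP2K1 stood at 145 and 142 CPM in vehicle and at 52.6 and 61.1 CPM with trametinib. The fall left 39.5% of the vehicle level (log2 change -1.34, SE 0.113, adjusted p = 7.37e-05 in edgeR). In 1027B it stood at 222 and 248 CPM in vehicle and at 109 and 142 CPM with trametinib, which left 53.6% (log2 change -0.90, SE 0.149, adjusted p = 0.00715 in edgeR). Both calls were kept in every alternative setting and without each library.

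In 3311 cells Map2k1 stood at 193 and 196 CPM in vehicle and at 104 and 127 CPM with trametinib, which left 59.6% (log2 change -0.75, SE 0.148, adjusted p = 0.00862 in edgeR). Without trametinib replicate 1 the change was -0.61 and was not called (adjusted p = 0.0689). No such difference was detected in H1651. MAP2K1 stood there at 154 and 163 CPM in vehicle and at 145 and 161 CPM with trametinib, with a log2 change of -0.04 and a 95% interval from -0.29 to 0.20 (adjusted p = 0.999 in edgeR). Doses, cultures and tables differ between the lines, and the difference between their responses was not tested.

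The changes of Map2k1 with MRTX1133 were not called by edgeR without a block. In 1027B it stood at 144 and 163 CPM with 20 nM MRTX1133, below both vehicle libraries, a log2 change of -0.61 (SE 0.148, adjusted p = 0.0619 in edgeR). DESeq2 called this change (adjusted p = 0.00993), as did edgeR with the replicate number as a block (log2 change -0.61, adjusted p = 0.00110), beside 24.1% of all genes. Directly against trametinib, Map2k1 was 0.29 higher on the log2 scale with MRTX1133 (adjusted p = 0.398 in edgeR, and 0.0413 with the block, which called 14.1% of all genes). In that direct comparison edgeR without the block called 0% of genes (0 of 14555), with 2357 at an unadjusted p under 0.05, and DESeq2 called 675. In 3154 with ethanol, Map2k1 stood at 288 and 255 CPM in vehicle and at 232 and 208 CPM with 3 nM MRTX1133 (log2 change -0.31, SE 0.136, adjusted p = 0.434 in edgeR). After 4OHT it stood at 163 and 143 CPM in vehicle and at 103 and 116 CPM with MRTX1133 (log2 change -0.49, SE 0.137, adjusted p = 0.0895 in edgeR). DESeq2 called the latter (adjusted p = 0.0485), as did a fit with only these 2 groups (adjusted p = 0.00929).

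Map2k1 was also lower after 4OHT in 3154. In the 48-hour experiment 4OHT left 56.4% of the level in vehicle, from 288 and 255 to 163 and 143 CPM (log2 change -0.83, SE 0.137, adjusted p = 0.00388 in edgeR). Without 4OHT vehicle replicate 2 this was -0.74 and not called (adjusted p = 0.0549). With MRTX1133 present 4OHT left 49.7%, from 232 and 208 to 103 and 116 CPM (log2 change -1.01, SE 0.138, adjusted p = 0.00177 in edgeR), and this call was kept without each library and in every alternative setting. The interaction of 4OHT and MRTX1133 on Map2k1 was -0.18 (95% interval from -0.63 to 0.26, adjusted p = 0.930 in edgeR), and 0% of genes (0 of 15458) were called in that test, with 1150 at an unadjusted p under 0.05 and 30 called by DESeq2. At 2 weeks after 4OHT, Map2k1 stood at 161 and 191 CPM against 247 and 261 CPM after ethanol (log2 change -0.53, SE 0.135, adjusted p = 0.0650 in edgeR), and DESeq2 called it (adjusted p = 0.0210). Doxycycline induction of HNF4α in H1651 left MAP2K1 at 149 and 156 CPM, against 156 and 148 CPM without it (log2 change 0.00, 95% interval from -0.16 to 0.17).

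Map2k2 was called in 0 of 11 comparisons by edgeR without a block, and a difference between its changes and those of Map2k1 was not tested. Its largest difference was in 1027B with MRTX1133, from 111 and 118 CPM to 88.6 and 88.7 CPM (log2 change -0.37, SE 0.0916, adjusted p = 0.0670 in edgeR, 0.00751 with the replicate block and 0.0374 in DESeq2). With trametinib it stood at 91.6 and 95.6 CPM in 1027B, also below both vehicle libraries (log2 change -0.29, adjusted p = 0.0567 in edgeR, and 0.0106 with the block). In 3311 it stood at 106 and 110 CPM in vehicle and at 103 and 107 CPM with trametinib (log2 change -0.04, 95% interval reaching from -0.34 to 0.25). In H358, MAP2K2 stood at 76.5 and 70.8 CPM in vehicle and at 68.5 and 64.6 CPM with trametinib (log2 change -0.15, adjusted p = 0.285 in edgeR). Over the 12 libraries of 3154 it ran from 91.4 to 153 CPM, and the ethanol vehicle libraries of the 48-hour experiment alone stood at 91.4 and 135 CPM.

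**Figure D3:**
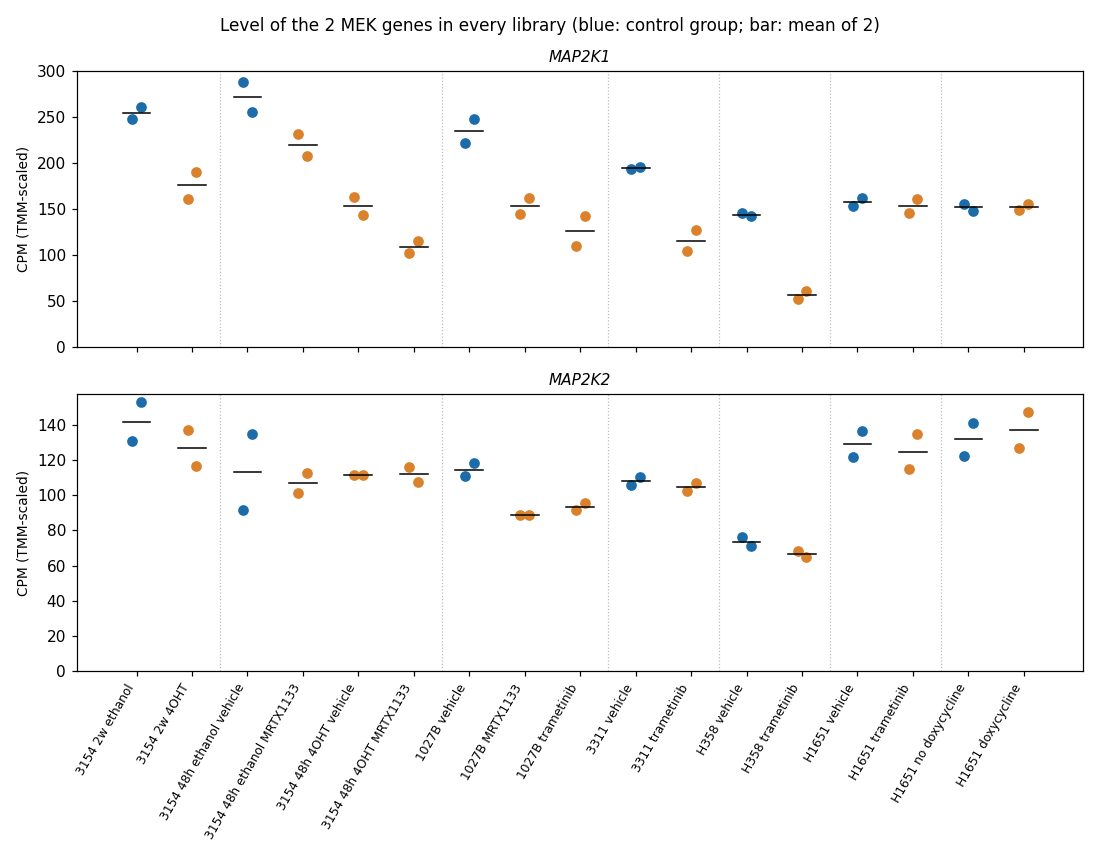
CPM of MAP2K1 and MAP2K2 (Map2k1 and Map2k2 in mouse) in all 34 libraries by group, with blue points for control groups and bars for the mean of 2 libraries. MAP2K1 drops to 52.6 and 61.1 CPM in H358 with trametinib, where MAP2K2 stands at 68.5 and 64.6 CPM.

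The ratio of reads between the 2 MEK genes needs no scaling between libraries. It is not divided by length, so it compares libraries and does not say which gene is the more abundant. In H358 there were 1.90 and 2.01 MAP2K1 reads per MAP2K2 read in vehicle and 0.768 and 0.945 with trametinib. In 3311 the ratio was 1.82 and 1.77 in vehicle and 1.02 and 1.19 with trametinib. In 1027B it was 2.00 and 2.10 in vehicle, 1.63 and 1.83 with MRTX1133 and 1.19 and 1.49 with trametinib, an order in which the 3 groups did not overlap. In the 48-hour experiment of 3154 the ratio was 3.16 and 1.90 in ethanol vehicle, 2.29 and 1.84 in ethanol with MRTX1133, 1.47 and 1.28 in 4OHT vehicle and 0.883 and 1.08 in 4OHT with MRTX1133. The ethanol groups overlapped each other, and all 4 libraries given 4OHT were below the 4 given ethanol. At 2 weeks the ratio was 1.89 and 1.71 after ethanol and 1.18 and 1.64 after 4OHT, where the higher 4OHT library lay close to the lower ethanol one. In H1651 all 8 libraries lay between 1.05 and 1.27.

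**Figure D4:**
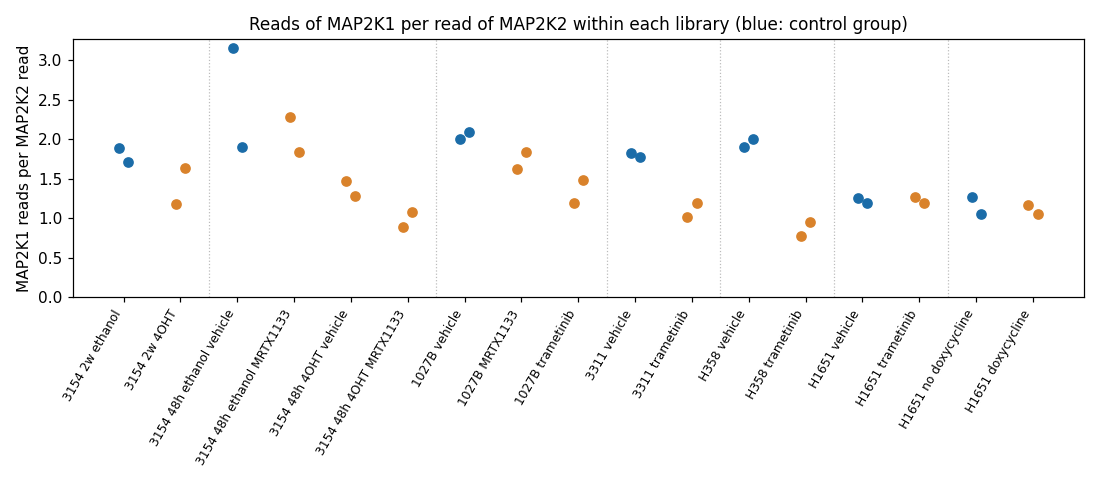
Reads of MAP2K1 per read of MAP2K2 within each of the 34 libraries, by group, with control groups in blue. The lowest ratios are 0.768 in H358 with trametinib and 0.883 in 3154 with 4OHT and MRTX1133.

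Mapk3 encodes ERK1, the last kinase of the cascade. In 3311 it stood at 176 and 172 CPM in vehicle and at 118 and 105 CPM with trametinib, which left 64.1% (log2 change -0.64, SE 0.133, adjusted p = 0.0101 in edgeR). Without trametinib replicate 2 the change was -0.57 and not called (adjusted p = 0.0782). In the 48-hour experiment it fell after 4OHT in vehicle from 235 and 249 CPM to 156 and 146 CPM (log2 change -0.68, SE 0.118, adjusted p = 0.00457 in edgeR), a call lost without 4OHT vehicle replicate 2 (log2 change -0.63, adjusted p = 0.0647). With MRTX1133 present it stood at 245 and 229 CPM in ethanol and at 189 and 173 CPM after 4OHT (log2 change -0.39, SE 0.117, adjusted p = 0.0410 in edgeR). That last call was lost with upper-quartile scaling (adjusted p = 0.111), with a minimum of 10 counts in every library (adjusted p = 0.0519), with the replicate block and in a fit with only these 2 groups (adjusted p = 0.0654). It was also lost without any 1 of its 4 libraries, at adjusted p values of 0.164 and 0.0758 without ethanol MRTX1133 replicates 1 and 2, and of 0.119 and 0.232 without 4OHT MRTX1133 replicates 1 and 2.

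The other comparisons of Mapk3 were not called by edgeR without a block. At 2 weeks after 4OHT it stood at 266 and 282 CPM against 352 and 483 CPM after ethanol (log2 change -0.61, SE 0.177, adjusted p = 0.0912 in edgeR and 0.0335 in DESeq2). Its ethanol libraries were far apart, and leaving out each library in turn gave changes from -0.83 to -0.36. In H358, MAPK3 was higher with trametinib, at 78.1 and 63.7 CPM against 59.8 and 56.7 CPM (log2 change 0.29, SE 0.126, adjusted p = 0.0952 in edgeR). Leaving out each library in turn gave changes from 0.14 to 0.42. In 1027B the vehicle libraries stood at 227 and 280 CPM, those with trametinib at 186 and 276 CPM and those with MRTX1133 at 170 and 251 CPM, so all groups overlapped. With the replicate block the MRTX1133 difference was called (log2 change -0.29, adjusted p = 0.0366), against an adjusted p of 0.568 without it. H1651 libraries of the trametinib experiment lay between 30.1 and 34.1 CPM.

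**Figure D5:**
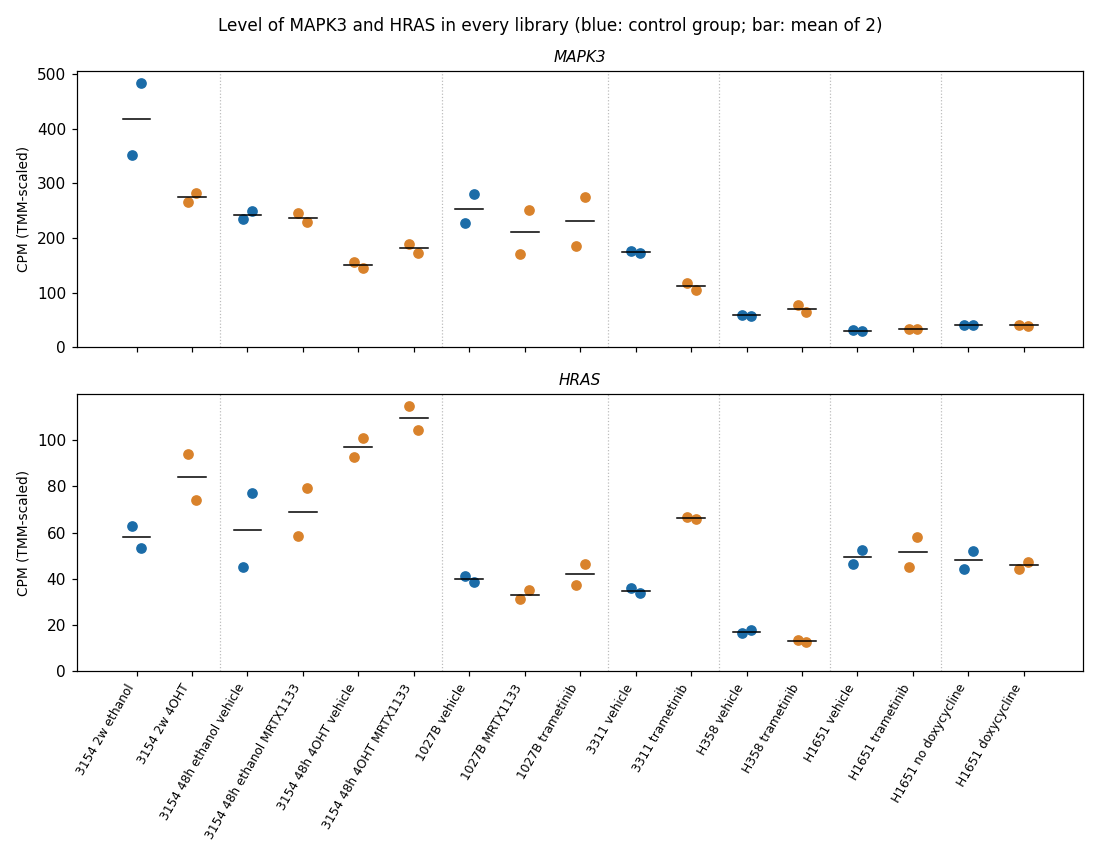
CPM of MAPK3 and HRAS (Mapk3 and Hras in mouse) in all 34 libraries by group, with control groups in blue and bars for the mean of 2 libraries. In 3311, Mapk3 is lower and Hras higher with trametinib, and neither pair of groups overlaps, as for 74.5% of all tested genes there.

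Other cell types were checked beside these results. In H358 the summed fibroblast markers stood between 33.1 and 37.3 CPM in vehicle and between 119 and 148 CPM with trametinib, mostly COL1A1, and the summed epithelial markers between 4349 and 4427 and between 2679 and 3092 CPM. All 5 epithelial markers were called there by edgeR, with KRT18, KRT8 and EPCAM lower (log2 changes of -1.58, -1.04 and -0.68) and CDH1 and NKX2-1 higher (1.05 and 0.47). The endothelial sum in H358 stood between 12.1 and 14.4 CPM in vehicle and between 21.1 and 21.2 CPM with trametinib, with CDH5 called higher (3.57), and PTPRC was called higher (1.87). In 3311 the epithelial sum stood between 5609 and 6409 CPM in vehicle and between 3856 and 4732 CPM with trametinib, and the immune sum between 9.55 and 15.7 and between 21.8 and 28.6 CPM, while Ptprc was at 0 in all 4 libraries. The immune markers tested in 3311 were called in opposite directions, Csf1r higher (log2 change 1.55) and Cd68 lower (-1.83), and of the epithelial markers Krt18 alone was called (-1.43). Of the fibroblast markers there, Col1a1 was called higher (1.62) and Pdgfra lower (-0.84), with a sum between 14.9 and 15.8 CPM in vehicle and between 11.4 and 14.4 CPM with trametinib. In 1027B with trametinib, Cdh1 and Nkx2-1 (0.56 and 0.43) and Csf1r (2.58) were called higher and Ptprc lower (-2.78), with an immune sum between 7.80 and 8.28 CPM in vehicle and between 6.44 and 7.17 CPM with trametinib. After 4OHT with MRTX1133, Col1a1 was called higher (1.89), with a fibroblast sum of at most 0.473 CPM. In 3154 2 weeks after ethanol the immune sum stood between 18.4 and 44.6 CPM, and after 4OHT between 9.91 and 13.3 CPM. Of the immune markers tested there, Csf1r was called lower (log2 change -2.58) and Cd68 had a change of 0.31 that was not called. The endothelial marker Pecam1 was also called lower (-1.37), with the endothelial sum between 5.08 and 5.93 CPM after ethanol and between 2.17 and 2.55 CPM after 4OHT. In H1651 the fibroblast sum stood between 504 and 548 CPM without doxycycline and between 311 and 326 CPM with it. Of 4 fibroblast markers tested there, 1 was called lower. The epithelial sum stood between 4444 and 4453 CPM without doxycycline and between 5739 and 6220 CPM with it, with 2 of 5 markers called higher. The part of these markers in the results was not tested. In bulk RNA, fewer cells of a type and less RNA per cell cannot be told apart.

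The 38 other genes of the pathway fall into adaptors and exchange factors, RAS GTPase-activating proteins, lipid processing of RAS, scaffolds and regulators, and kinases that ERK acts on. Counts for these and the lists below come from fits without a block, also in 1027B. Trametinib called 10 of 36 tested in 1027B (2 higher, 8 lower), 15 of 37 in 3311 (4 higher, 11 lower) and 27 of 38 in H358 (13 higher, 14 lower), and 0 of 38 in H1651, beside 26.7%, 39%, 46.8% and 0% of all genes. MRTX1133 called 3 of 36 in 1027B (1 higher, 2 lower), and 0 of 35 with ethanol and 1 of 35 with 4OHT in 3154, beside 6.27%, 0.349% and 4.64% of all genes. These were chosen for naming after their values were seen: in 1027B Mras rose by 2.10, and Ksr1 and Shc1, an adaptor of receptor tyrosine kinases, had log2 changes of -0.92 and -0.43. Leaving out any 1 of the 4 libraries ended the call of Mras (adjusted p = 0.118 to 0.238 in edgeR) and of Shc1 (0.155 to 0.248), and that of Ksr1 ended without vehicle replicate 2 (0.0834) or either MRTX1133 library (0.118 without replicate 1, 0.0835 without replicate 2). The 1 gene in 3154 was Ksr1, with a log2 change of -0.99 (adjusted p = 0.0327 in edgeR), a call lost whichever of the libraries compared was left out (adjusted p = 0.128 to 0.298). In 3154, 4OHT called 8 of 37 at 2 weeks (4 higher, 4 lower), 13 of 35 in the 48-hour vehicle comparison (6 higher, 7 lower) and 8 of 35 with MRTX1133 (3 higher, 5 lower), beside 9.81%, 31% and 27.7% of all genes. Doxycycline in H1651 called 0 of 38, beside 1.42%. Mras, a RAS relative that acts with Shoc2 to activate RAF, rose with trametinib in 3 of 4 cultures, with log2 changes of 2.86 in 1027B (adjusted p = 0.00591), 3.30 in 3311 (adjusted p = 0.000380) and 2.89 in H358 (adjusted p = 1.89e-05, all edgeR). In H1651 its change was 0.34 (SE 0.383, adjusted p = 0.999 in edgeR). Pea15a, whose protein holds ERK in the cytoplasm, went in different directions: it fell by 1.27 in 1027B and by 1.39 in 3311 with trametinib, while PEA15 rose by 1.15 in H358. After 4OHT in 3154, Pea15a rose by 1.59 at 2 weeks, by 1.35 in the 48-hour vehicle comparison and by 1.33 with MRTX1133. Ksr1, a scaffold that brings RAF and MEK together, fell with trametinib in 1027B (log2 change -1.34, adjusted p = 0.00204 in edgeR). After 4OHT with MRTX1133 its change was -1.05 (adjusted p = 0.00590 in edgeR), a call lost without 4OHT MRTX1133 replicate 1 (adjusted p = 0.0585).

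RAS GTPase-activating proteins switch RAS off. Trametinib called 5 of 7 lower in 3311 (median log2 change -0.76), where 39% of all genes were called in either direction. In H358 it called 6 of 7 (46.8% of all genes), 2 higher and 4 lower, with RASA1 falling by 1.41 and DAB2IP rising by 1.42. In 1027B it called 2 of 6, 2 lower (26.7% of all genes), and in H1651 0 of 7 (0%). MRTX1133 called 0 of 6 in 1027B and 0 of 5 in 3154 with ethanol or with 4OHT, and doxycycline 0 of 7 in H1651. In 3154 2 weeks after 4OHT, 4 of 7 were called (9.81% of all genes), 3 higher and 1 lower (median log2 change 0.60). The 3 were Rasal1, Rasal2 and Rasa3, which rose by 5.71, 2.46 and 1.67. Rasal1 and Rasal2 did not pass the filter on low counts in the 48-hour experiment. There 4OHT called 3 of 5 in vehicle (3 higher, beside 31% of all genes) and 1 of 5 with MRTX1133 (1 higher, beside 27.7%). The call of Rasa3 was lost without 4OHT replicate 1 (adjusted p = 0.0805) or replicate 2 (adjusted p = 0.0852). The 7 JNK and p38 kinase genes and their MAP2Ks, the parallel stress branches, were called with trametinib in 2 of 7 in 1027B (1 higher, 1 lower), 4 of 7 in 3311 (2 higher, 2 lower) and 2 of 7 in H358 (1 higher, 1 lower), beside 26.7%, 39% and 46.8% of all genes. Map2k6, a p38 activator, fell by 1.78 in 3311.

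ERK output was read from 10 genes that ERK turns on, among them the feedback inhibitors Dusp6 and Spry4 and the ETS factor Etv4. Trametinib called 9 of 10 lower in 1027B (median log2 change -2.56), 9 of 10 in 3311 (-2.45) and 10 of 10 in H358 (-3.95), beside 26.7%, 39% and 46.8% of all genes called in either direction. In H1651 it called 0 of 10, although all 10 changes were below 0 (median -1.94, from -5.43 to -0.64), beside 0% of all genes called in that table. MRTX1133 called 5 of 10 lower in 1027B (median -0.95), 0 of 10 in 3154 with ethanol (-0.23) and 3 of 10 lower in 3154 with 4OHT (-0.46), beside 6.27%, 0.349% and 4.64% of all genes. Of the 5 in 1027B, Spry4 and Etv4 both lost their calls without vehicle replicate 1 (adjusted p = 0.0747 and 0.0631 in edgeR), vehicle replicate 2 (0.0923 and 0.0719) or MRTX1133 replicate 2 (0.0745 and 0.0840), and Etv4 also without MRTX1133 replicate 1 (0.0685). The 3 in 3154 with 4OHT were Spry2, Spry4 and Etv4, and each call was lost without any 1 of the 4 libraries compared (adjusted p = 0.0596 to 0.407 in edgeR). 4OHT called 2 of 10 higher at 2 weeks, 2 higher and 2 lower in the 48-hour vehicle comparison and 1 higher and 2 lower with MRTX1133, beside 9.81%, 31% and 27.7% of all genes. Both calls at 2 weeks, Fosl1 and Etv4, were lost without 4OHT replicate 2 (adjusted p = 0.155 and 0.143 in edgeR). In the 48-hour vehicle comparison Fosl1 and Etv5 were lost without 4OHT vehicle replicate 1 (0.0828 and 0.219) or replicate 2 (0.0998 and 0.135). With MRTX1133, Spry2 and Ccnd1 were lost without ethanol MRTX1133 replicate 1 (0.0814 and 0.0928) or 4OHT MRTX1133 replicate 2 (0.152 and 0.129). Doxycycline in H1651 called 2 of 10 higher, beside 1.42% of all genes, and 5 of the 10 changes were below 0. The 2 were DUSP6 and CCND1, with log2 changes of 0.54 and 0.42. The log2 change of MAP2K1 in H1651 with trametinib was -0.04.

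The genes closest in pattern to Map2k1 and Mapk3 were found over the 11 mouse group means of log2 CPM, centred within each table, among 8028 genes. For Map2k1 they were Piga (r = 0.996), Pde12 (0.992) and Proser2 (0.992), and for Mapk3 they were Snx21 (0.998), Tle6 (0.989) and Fam126b (0.988). The 11 points come in 4 tables and are centred within each, so the points of a table depend on each other. These values are a description only.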

How the data were processed

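Per the labels' protocols, poly(A) RNA from a Trizol and column extraction went into stranded libraries read from both ends. The authors deposited raw read counts per Ensembl gene; the submitters' processing notes name cutadapt 3.5, STAR 2.7.6a and featureCounts 1.6.3 and the builds mm10, mm39 and hg38, without their roles. Coordinates here are those of GRCm38, and none were taken from the count tables.

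Each of the 7 tables was fitted in R 4.3.3 with edgeR 4.0.16: genes kept by filterByExpr, TMM scaling, quasi-likelihood F-test, Benjamini-Hochberg adjustment over the genes of the table. The 1027B and 48-hour tables had 1 fit each. CPM values are TMM-scaled. An exact permutation test of 2 against 2 libraries cannot fall under 0.05, so p values come from the models. The fits were tested on simulated data. The alternatives tried were other tools and scalings (DESeq2 1.42.0, upper-quartile factors, RLE), other filters (none, or 10 counts or more in each library), a fit of 2 groups alone, a block for the replicate number, and leaving out each library, where the lone library of a group is assumed to vary like the others. The labels name no pairs in any table. Replicate numbers were taken as pairing the 1027B libraries, where the correlation of replicate differences between groups was 0.243, 0.372 and 0.414. It was 0.427 in 3154 at 2 weeks and 0.623 in H1651 with trametinib, so it does not set 1027B apart. Named genes are all members and up to 3 called genes with the largest change per list. Members and lists were chosen with earlier results of these data known.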

Additional observations from a re-analysis of the deposited data

Results flagged for a closer look

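For 4 members the log2 change with trametinib had opposite signs in different cultures, with both treated libraries above the vehicle libraries in 1 culture and both below them in another. Groups that do not overlap were common among all tested genes, at 67.1% in 1027B, 74.5% in 3311, 75.9% in H358 and 28.5% in H1651. The difference between the cultures was not tested, and the doses differ between them. For Hras, the log2 change was 0.93 in 3311 and -0.40 in H358, both called by edgeR, although the call in H358 was lost without any 1 of its 4 libraries. For Nras it was -0.24 in 3311 and 0.27 in H358, and neither was called by edgeR without a block. For Araf it was 0.32 in 1027B and -0.24 in 3311, and neither was called by edgeR without a block. With the replicate block the change in 1027B was called (adjusted p = 0.0362), in a fit that called 44.9% of all genes. Without a block Mapk3 gave -0.64 in 3311, which was called, and 0.29 in H358 and 0.13 in H1651, which were not. The block called the change in H358.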

How the results depend on the processing

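Of the 10 called changes, 4 were kept under every alternative and without each library: Map2k1 with trametinib in 1027B and in H358, Map2k1 after 4OHT with MRTX1133, and Hras in 3311. The other 6 kept their direction throughout but lost the call in at least 1 alternative, as given beside each of them. No scaling alternative moved the median of all genes by over 0.1.

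With the replicate block, which was taken to pair the 1027B libraries, 3 members were called there with trametinib (44.9% of all genes), 3 with MRTX1133 (24.1%) and 1 between the inhibitors (14.1%). Elsewhere no pairing was assumed. There the block called 3 members at 2 weeks after 4OHT (31.5% of all genes), 3 after 4OHT in vehicle (31.7%), 2 after 4OHT with MRTX1133 (28.4%), 1 with doxycycline (17.6%) and 5 in H358 (60.4%). It called Hras after 4OHT in all 3 comparisons (adjusted p = 0.00834 at 2 weeks, 0.0381 in vehicle and 0.0414 with MRTX1133) and Mapk3 at 2 weeks (0.0106) and in H358 (0.0114), and lost Mapk3 after 4OHT with MRTX1133 (adjusted p = 0.0546). The correlation of replicate differences between the groups of these other tables ran from -0.25 to 0.62. The block also called 1881 genes with trametinib in H1651, against 0 without it. DESeq2 called 2 members with MRTX1133 in 1027B (11.4% of all genes), 2 at 2 weeks after 4OHT (15.6%), 3 after 4OHT in vehicle (29.4%) and 3 with MRTX1133 (25%, edgeR called 2 members in each), 1 with MRTX1133 in 4OHT (9.13%) and 1 in H358 (38%). Over all genes it called 1593 against edgeR's 913 with MRTX1133 in 1027B, 2336 against 1421 at 2 weeks, 319 against 54 with MRTX1133 in ethanol, 1291 against 717 with MRTX1133 in 4OHT and 441 against 247 with doxycycline. A fit with only the 2 groups called 1 member with MRTX1133 in 4OHT, and over all genes 3932 there, 0 with MRTX1133 in ethanol and 3154 genes against 4795 after 4OHT in vehicle. After 4OHT with MRTX1133, upper-quartile factors (26.8% of all genes) and the filter of at least 10 counts (27.8%) each called 1 member. In H358, no count filter called 1 (37.2%). Leaving out each library gave from 0 to 1 called members at 2 weeks (2.66% to 18.7% of all genes), from 0 to 3 after 4OHT in vehicle (10.4% to 37%), 1 after 4OHT with MRTX1133 in every case (10.9% to 17.4%), and from 1 to 2 in H358 (33.3% to 46.2%). The cause of these differences was not tested.

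Changes of sign occurred only in members that were not called. With upper-quartile factors the log2 change was 0.019 for Araf at 2 weeks, 0.051 for Braf and 0.049 for Map2k2 after 4OHT in vehicle, 0.076 for Braf after 4OHT with MRTX1133, 0.033 for Nras and 0.0038 for Mapk3 with MRTX1133 in ethanol, -0.0035 for MAP2K1 with doxycycline, and 0.0064 for NRAS with trametinib in H1651. With at least 10 counts it was 0.013 for Map2k2 after 4OHT in vehicle, 0.021 for Braf after 4OHT with MRTX1133 and 0.0051 for Nras with MRTX1133 in ethanol. With the replicate block it was 0.00029 for Braf after 4OHT in vehicle, 0.024 for Braf after 4OHT with MRTX1133 and -0.0013 for Hras in the interaction. With MRTX1133 in 4OHT, Map2k2 was at -0.0015 in DESeq2 and at -0.0020 with no count filter, which also gave -0.0018 for Hras in the interaction.

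Leaving out each library in turn moved log2 changes across 0 for the following members. With trametinib in 1027B, Hras ran from -0.093 to 0.22 and Mapk3 from -0.45 to 0.12, and with MRTX1133 there Araf ran from -0.049 to 0.43. For MRTX1133 against trametinib, Nras ran from -0.16 to 0.13, Araf from -0.37 to 0.10, Braf from -0.16 to 0.018 and Mapk3 from -0.44 to 0.18. At 2 weeks after 4OHT, Araf ran from -0.16 to 0.0043. After 4OHT in vehicle, Araf ran from -0.011 to 0.15, Braf from -0.47 to 0.55 and Map2k2 from -0.28 to 0.28, and with MRTX1133 Braf ran from -0.22 to 0.23 and Map2k2 from -0.0034 to 0.14. For MRTX1133 in ethanol, Nras ran from -0.15 to 0.11, Hras from -0.16 to 0.62, Araf from -0.00052 to 0.16, Braf from -0.50 to 0.52, Map2k2 from -0.33 to 0.23 and Mapk3 from -0.10 to 0.020. For MRTX1133 in 4OHT, Braf ran from -0.18 to 0.074 and Map2k2 from -0.052 to 0.062. In the interaction, Nras ran from -0.054 to 0.21, Hras from -0.44 to 0.34, Braf from -0.57 to 0.45 and Map2k2 from -0.22 to 0.33. Braf in 3311 ran from -0.22 to 0.26. With doxycycline, HRAS ran from -0.18 to 0.051, MAP2K1 from -0.027 to 0.038 and MAP2K2 from -0.052 to 0.17. With trametinib in H1651, NRAS ran from -0.10 to 0.076, HRAS from -0.13 to 0.23, ARAF from -0.10 to 0.16, BRAF from -0.34 to 0.075, MAP2K1 from -0.12 to 0.030 and MAP2K2 from -0.17 to 0.060. ARAF in H358 ran from -0.021 to 0.087.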
